A study of Mus musculus with 12 samples.

Results

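The genes described here are 42 cell cycle and proliferation genes, followed in the livers of adult mice that had been exposed to low-dose cadmium (LDC) since conception and of mice that drank water alone. A gene was represented by an Affymetrix probe set, a group of short probes against its transcript, that the platform annotation assigns to that gene and to no other, and where a gene had several, by the one with the highest mean over all arrays. By this rule 41 of the 42 genes were found among 18193 named genes, with 98 probe sets between them; Ccnb1, which encodes cyclin B1, had no probe set of its own. The list goes by role in the cell cycle, and the rule uses no measured value beyond the brightness that picks a probe set.

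The study asked whether long-term low-dose cadmium changes hepatic gene expression and whether the sexes differ in this. C57BL/6J dams drank water with 100 nM cadmium chloride, or water alone, from 1 week before mating, and their offspring drank the same after weaning until 30 weeks of age, when liver RNA was taken. The 4 groups of 3 arrays each are LDC males (offspring of LDC dams, cadmium throughout life), control males (water), LDC females (cadmium) and control females (water). By their labels the mice of a group are biological replicates, but litter and cage are not given, so mice of a group may share a dam, and the p-values measure only the spread between these arrays. The values are MAS 5.0 signals, a linear brightness scaled to the same trimmed mean of 500.0 on every array.

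A cell that divides passes from G1 into DNA synthesis (S phase), G2 and mitosis. D-type cyclins with Cdk4, and then cyclin E with Cdk2, drive the exit from G1, which frees E2F transcription factors to switch on the genes for licensing replication origins and for DNA synthesis. Cyclin A, cyclin B and Cdk1 take the cell into mitosis, and genes of that phase are switched on by the MuvB complex with B-Myb and FoxM1, which acts through a promoter element called the cell cycle genes homology region (CHR). Most hepatocytes of an adult liver rest outside the cycle and can re-enter it after injury, whereas blood cell precursors, where present, divide all the time. In whole-liver RNA, fewer cells of a type and less RNA per cell cannot be told apart.

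The promoters of 4 members are shown because between them they hold the E2F element of S-phase genes and the CHR of mitotic genes, alone or together. They are RefSeq sequences of the mouse build GRCm38.p6, from 250 bases before to 50 bases after the start of the gene, written 5′ to 3′ along the gene. Capitals mark matches on either strand to TTTGAA or TTCGAA (CHR), to TTTCGCGC, TTTGGCGC or TTTCCCGC (E2F), and to CCAAT, the box bound by NF-Y, whose opposite strand reads ATTGG.
Top2a (chr11:99024140-99024439, minus strand): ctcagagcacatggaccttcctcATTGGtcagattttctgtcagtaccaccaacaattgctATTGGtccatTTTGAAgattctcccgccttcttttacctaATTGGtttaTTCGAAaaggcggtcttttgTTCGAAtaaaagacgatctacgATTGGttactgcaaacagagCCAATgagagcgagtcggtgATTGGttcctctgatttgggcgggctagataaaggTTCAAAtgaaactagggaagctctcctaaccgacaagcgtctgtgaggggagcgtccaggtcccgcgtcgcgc
Cdk1 (chr10:69352863-69353162, minus strand): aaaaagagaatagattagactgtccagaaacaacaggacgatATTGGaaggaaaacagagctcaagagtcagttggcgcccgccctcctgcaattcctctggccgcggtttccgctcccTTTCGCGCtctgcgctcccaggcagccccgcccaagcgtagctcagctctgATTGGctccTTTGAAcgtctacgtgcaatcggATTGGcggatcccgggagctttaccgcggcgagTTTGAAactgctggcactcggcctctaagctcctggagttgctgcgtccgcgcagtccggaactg
Mcm5 (chr8:75109259-75109558, plus strand): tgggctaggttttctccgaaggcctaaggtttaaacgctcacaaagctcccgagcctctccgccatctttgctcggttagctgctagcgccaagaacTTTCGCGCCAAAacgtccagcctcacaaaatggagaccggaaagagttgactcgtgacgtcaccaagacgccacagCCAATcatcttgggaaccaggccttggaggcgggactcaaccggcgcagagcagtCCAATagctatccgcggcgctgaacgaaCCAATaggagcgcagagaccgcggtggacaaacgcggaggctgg
Cdt1 (chr8:122567765-122568064, plus strand): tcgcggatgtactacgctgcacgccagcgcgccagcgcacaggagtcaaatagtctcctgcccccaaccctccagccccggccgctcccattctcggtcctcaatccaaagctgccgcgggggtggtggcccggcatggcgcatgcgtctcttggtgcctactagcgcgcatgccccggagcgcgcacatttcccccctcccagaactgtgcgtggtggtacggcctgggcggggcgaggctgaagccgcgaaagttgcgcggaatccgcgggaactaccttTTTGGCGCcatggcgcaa
Top2a, the DNA topoisomerase that untangles chromosomes, had 4 CHR and 6 CCAAT matches and no E2F match, whereas Mcm5, a subunit of the replicative helicase, had 2 E2F matches on a shared stretch, 3 CCAAT boxes and no CHR. Cdk1, the mitotic kinase, held all 3 kinds, and Cdt1, the factor that loads the helicase onto origins, held a single E2F match just after its start.

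The sequence table held 36 promoters of 33 members. The 8 promoters of chromosome and spindle genes belong to 7 genes, since Prc1 has 2 that overlap. Matches on the stretch they share are counted in both. The E2F letters were in 6 of 8 promoters of origin licensing genes and in none of the 15 promoters of the groups of mitotic kinases and of chromosome and spindle genes, against 1.8% of 32851 mouse promoters of this length. They were also in none of the 5 promoters of DNA synthesis genes, in 1 of 5 of G1 cyclins and kinases and in 1 of 3 of genes of entry into mitosis. The CHR letters were in 6 of 7 promoters of mitotic kinases, checkpoint and exit genes in 6 of 8 of chromosome and spindle genes, in 2 of 3 of genes of entry into mitosis and 2 of 8 of origin licensing genes, and in none of the promoters of G1 cyclins and kinases or of DNA synthesis genes, against 19.2% of all promoters. CCAAT was found in 26 of the 36, against 37.4% of all, and GGGCGG, the GC box bound by Sp1, in 30, against 35.7%. Among 91 matches to the CHR, E2F and CCAAT letters there was 1 overlap between different elements. A match is a description of the letters and does not show that a factor binds there.

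Of the 41 genes, 32 passed the filter on low values (a mean log2 signal at or above 5.6, the 40th percentile of all probe sets, which corresponds to a geometric mean signal of 48.6) and were tested. The 9 below it were Cdc6 and Tyms of S phase and Ccnb2, Foxm1, Bub1, Aurkb, Plk1, Birc5 and Kif20a of mitosis. Their medians over the 12 arrays lay between 8.4 for Kif20a, a kinesin of cell division, and 63.7 for Plk1, a kinase of mitotic entry, and single arrays reached 216 for Birc5, the survivin gene, and 155 for Ccnb2, the gene of cyclin B2, both on control female 3. The tested members had arithmetic mean signals between 72.1 and 3631, and Pcna and Ccnd1 were the 2 above 1000. The brightness of different probe sets cannot be ranked as RNA amount.

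The sex labels fitted the arrays, since Xist was between 16258 and 18731 on the female arrays and between 72.3 and 134 on the male arrays, and Eif2s3y, on the Y chromosome, was between 2234 and 2972 in males and at most 9.7 in females. Hepatocyte markers were bright throughout, with all 9 that had a probe set tested and a summed signal between 314812 and 385632. The median signal of an array lay between 95.1 and 110.3, and the 3′ to 5′ ratio of Gapdh, a measure of RNA integrity, between 0.684 and 0.836. That of actin was higher, between 1.642 on LDC female 2 and 2.21 on control female 1.

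The median within-group standard deviation was 0.54 on the log2 scale over the 32 members, against 0.34 over all 27022 tested probe sets, whose levels were not matched to the members'. It was 0.32 for the 7 G1 cyclins and kinases and 0.30 for the 4 DNA synthesis genes, and 0.89 for the 7 chromosome and spindle genes. Pcna, the sliding clamp of DNA polymerase, read 3379, 3574 and 3534 in LDC males, 3413, 3543 and 3501 in control males, 3664, 3855 and 3368 in LDC females and 3694, 3152 and 4896 in control females. The Pcna values of the male groups lay between 3379 and 3574, and the highest and the lowest of all 12 were both control females.

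**Figure D1:**
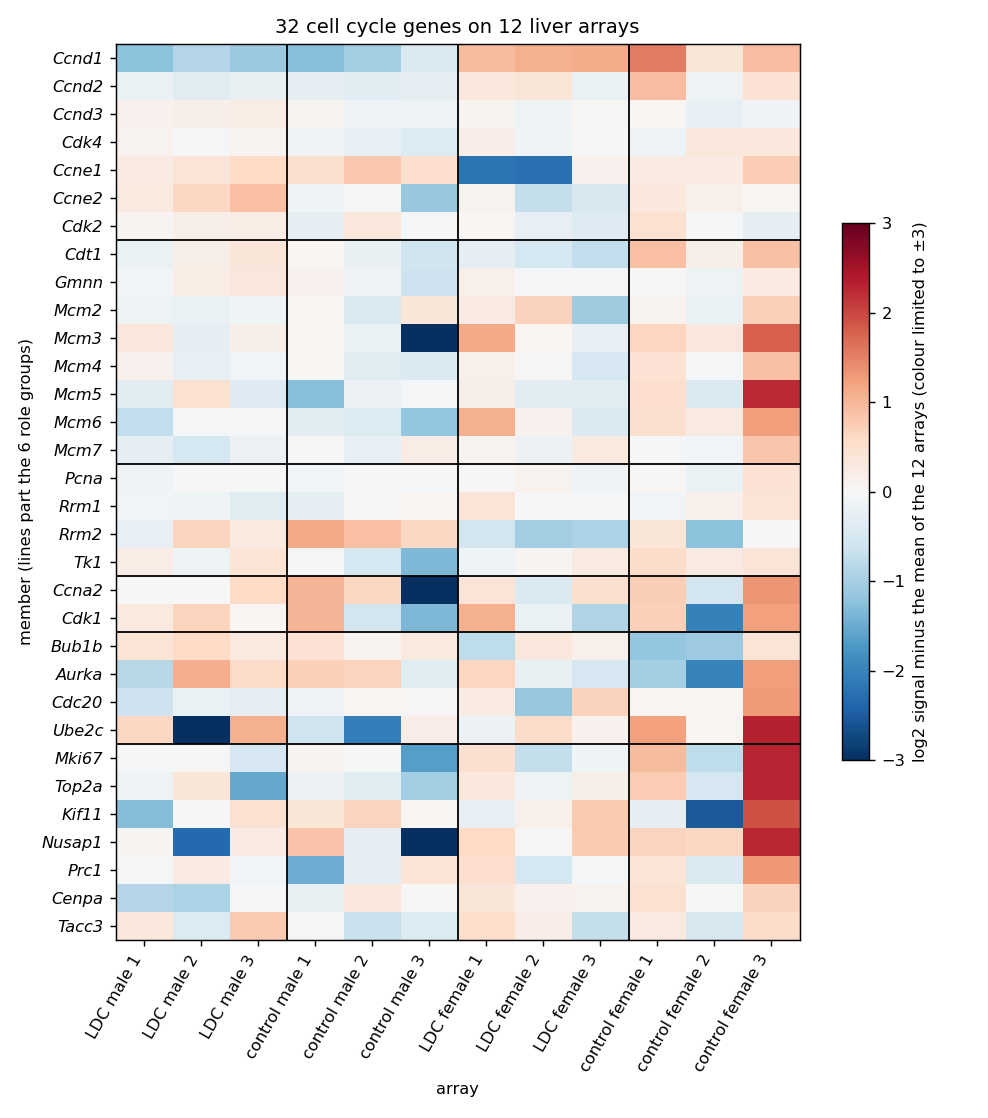
Log2 signal of the 32 tested members (rows, ordered by role) on the 12 arrays (columns), each less the gene's mean over the arrays, with red above and blue below that mean and the colour limited to ±3. Control female 3, the last column, is red for nearly all origin licensing, mitotic and chromosome genes, and Ccnd1 in the first row is blue in all male and red in all female columns.

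Among the control females array 3 was high and array 2 low for most of the members. Mki67, the gene of the Ki-67 antigen found in cycling nuclei, read 91.4, 96.2 and 65.7 in LDC males, 99.0, 91.7 and 29.6 in control males, 129.7, 56.6 and 85.5 in LDC females and 179.8, 54.9 and 451 in control females. Top2a read 102, 147 and 39.3 in LDC males, 102, 88.1 and 56.3 in control males, 142, 103 and 128 in LDC females and 193, 79.8 and 556 in control females. On these probe sets control female 3 was the highest of all 12 arrays for both genes, and control female 2 lay among the values of the other groups. A second tested Top2a probe set had another order. Its log2 values were 6.51, 7.01 and 6.64 in control females, and its highest array was control male 3 at 7.15.

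Cdk1 shared the order but not the height, with 148, 194 and 126 in LDC males, 246, 83.2 and 47.3 in control males, 254, 105 and 64.7 in LDC females and 199, 29.5 and 284 in control females. Mcm5 read 118, 206 and 114 in LDC males, 61.9, 133 and 145 in control males, 171, 119 and 121 in LDC females and 213, 111 and 714 in control females. Control female 3 was thus the highest array for Cdk1 and Mcm5 as well, and control female 2 the lowest array for Cdk1. Ccna2, the gene of cyclin A2, spread over a wider range in control males, where it read 229.6, 174 and 6.3, than in control females, where it read 190.1, 77.1 and 284. That range came from the 6.3 on control male 3. On a second tested Ccna2 probe set the control females had the wider range. Its log2 values were 6.64, 6.43 and 5.90 in control males and 7.43, 6.61 and 8.21 in control females.

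Control female 3 was the highest of its group for 23 of the 32 members, against 32.5% of all tested probe sets. It was the highest of all 12 arrays for 19 of the 32 (59.4%, against 8.7% of all tested probe sets). Control female 2 was the lowest of its group for 26 of the 32, against 33.3% of all. By role, all 13 members of the mitotic entry, mitotic kinase and chromosome groups, and 7 of the 8 origin licensing genes, had their highest control female value on array 3, as did 2 of the 4 DNA synthesis genes and 1 of the 7 G1 cyclins and kinases, and a difference between roles was not tested. The 30 other tested probe sets of the members, which the choice of a brightest probe set left out, had control female 3 highest in 17 and control female 2 lowest in 23, and among 36 further mitotic genes the numbers were 23 and 20. Among 36 further replication genes control female 3 was highest in 22, but control female 2 was lowest in 13 (36.1%, against the 33.3% of all). Among 18 genes of E2F, RB and MuvB-MYB factors the numbers were 5 and 5, and among 6 CDK inhibitors 3 and 4.

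Markers of neutrophils and their precursors differed between the same arrays. Their summed signal over 11 probe sets lay between 5736 and 5789.9 in LDC males, between 1612 and 2879 in control males and between 1322 and 2847 in LDC females, and was 17053, 6092 and 22411 on control females 1, 2 and 3. Prtn3, the proteinase 3 gene that granulocyte precursors express, read 322.5, 236 and 1308 in control females, whereas Elane, Ctsg, Camp and Chil3 of that list were below the filter. Kupffer cell and macrophage markers summed to 47064, 18406 and 36406 in control females and to between 7398 and 34396 in LDC females. In males their sums lay between 15383 and 15564.5 in controls and between 21970 and 30228 with LDC. The other lists had other orders. In control females, red cell and erythroblast markers summed to 2751, 2317 and 2247. B and plasma cell markers summed to 16942, 23709.5 and 19592, and T and NK cell markers to 1583, 844 and 851. Stellate cell and fibroblast markers summed to 36412, 22434 and 22991, and endothelial markers to 10406, 8382 and 9914. Hepatocyte markers summed to 314812, 341155 and 352413.5, and bile duct markers to 547, 418 and 363. The part of these cells in the members' values was not tested.

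**Figure D2:**
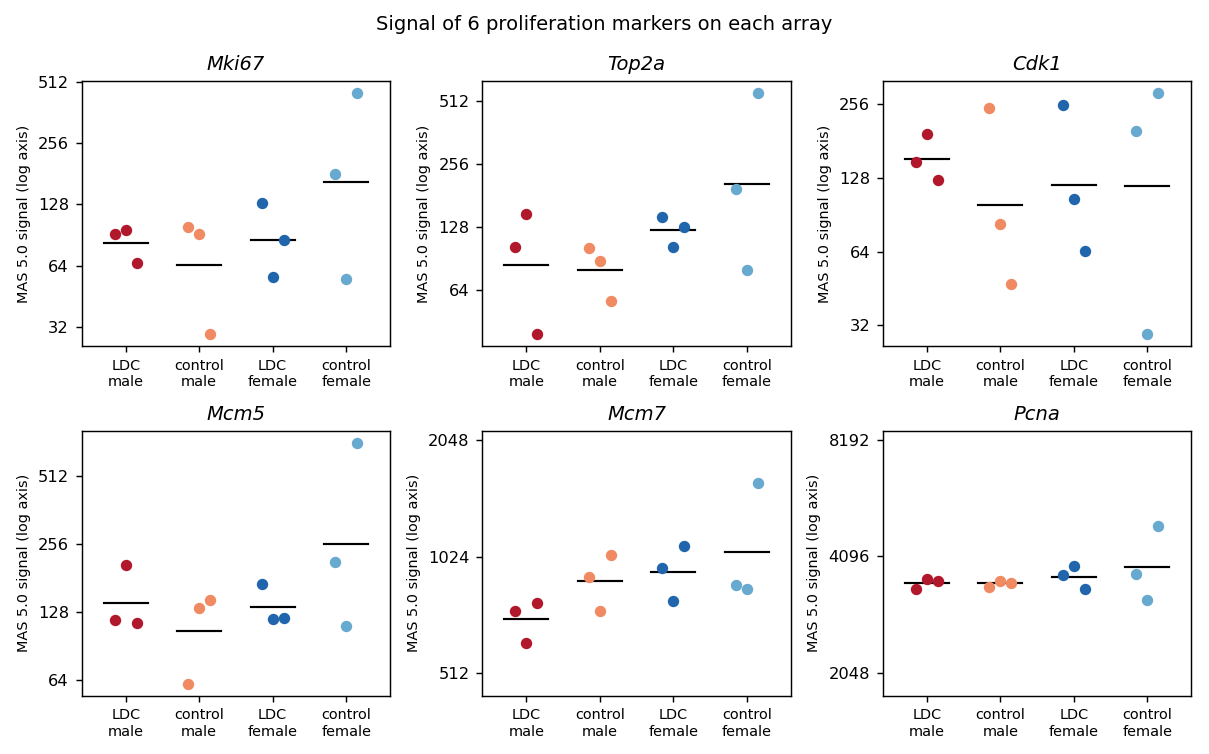
MAS 5.0 signal, on a log axis, of 6 members on each array, with a point per array and a line at the mean of the log2 values of the group (n = 3 arrays each). Control female 3 is the highest of all 12 points for each of the 6 genes, and control female 2 the lowest for Cdk1 and Pcna.

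LDC males were compared with control males to ask what cadmium did to these genes in males. Of the 32 members 0 were called at an adjusted p under 0.05 (limma, Benjamini-Hochberg over 27022 probe sets), against 0.278% of all probe sets. At an unadjusted p under 0.05 there were 3, or 9.4% of the members against 10.2% of all probe sets, and the methods' t-test, the one named in the study's methods, gave 2 at that level and 0 after adjustment. The study's methods name that test for body composition and metabolic results, and name no test for the p-values of the arrays. The median log2 fold change was 0.21 with 22 members above 0 and 10 below, beside 0.001 over all tested probe sets. It was 0.08 without control male 3, which was the lowest of its group for 17 of the 32 members. All LDC arrays lay above all control arrays for 3 members (9.4%, against 8.62% of all) and below them for 1 (3.1%, against 7.92%).

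Tk1, the thymidine kinase of the salvage pathway that supplies dTTP for replication, read 839, 645 and 951 in LDC males and 708, 498 and 281 in control males. The groups overlapped, since the lowest LDC male lay under the highest control male. The log2 fold change was 0.79 ± 0.26 (SE, limma) with an unadjusted p of 0.0092 and an adjusted p of 0.309, the smallest of the 32.

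Ccne2, the gene of cyclin E2, read 109.5, 136 and 166 in LDC males and 81.6, 89.7 and 40.6 in control males, so that all LDC males were higher. Its log2 fold change of 1.02 ± 0.46 had an adjusted p of 0.463. Ccnd3 and Cdk4, a D cyclin and its kinase, were the other members with all LDC males higher, at 0.25 ± 0.14 and 0.31 ± 0.17 and adjusted p-values of 0.586 and 0.563. Ccnd3 read 786, 811 and 839.7 in LDC males, 763, 648 and 644 in control males, 754, 652 and 734 in LDC females and 749, 601 and 652 in control females. Cdk4 read 773, 698 and 779 in LDC males, 667, 610.3 and 546 in control males, 832, 655 and 723 in LDC females and 643, 912 and 904 in control females.

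The member below on all LDC arrays was Cdc20, the activator of the anaphase-promoting complex, at 75.9, 101 and 95.4 in LDC males and 105, 122 and 121 in control males. Its log2 fold change was -0.36 ± 0.48 (adjusted p = 0.864). On a second tested Cdc20 probe set the male groups overlapped. The log2 values there were 5.56, 6.70 and 6.12 in LDC males and 5.64, 6.14 and 6.50 in control males. Cdk2, the kinase of cyclin E and one of the 5 brightest members, read 782, 838 and 860.5 in LDC males, 601, 932 and 713 in control males, 769, 629 and 566 in LDC females and 1019.7, 711 and 609.8 in control females. Its groups overlapped in both sexes, at 0.17 ± 0.21 in males and -0.23 ± 0.21 in females (adjusted p = 0.847 and 0.795).

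Gmnn, the gene of geminin, which blocks Cdt1, read 679, 841 and 906 in LDC males and 781, 672 and 468 in control males, a log2 fold change of 0.36 ± 0.19 with an adjusted p of 0.559. Mcm3, a helicase subunit, had the largest fitted value at 1.40 ± 0.79, from 189.7, 125 and 171 in LDC males and 158, 131 and 10.6 in control males. The fitted value for Mcm3 came from control male 3, since the other control males lay among the LDC males, and its adjusted p was 0.581.

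In the other direction Cenpa, the histone variant that marks centromeres, read 112, 106 and 195 in LDC males and 176, 259 and 206 in control males, a log2 fold change of -0.68 ± 0.30 with an adjusted p of 0.448. Rrm2, the small subunit of ribonucleotide reductase, which makes deoxynucleotides, read 442, 831 and 641 in LDC males and 1159, 976 and 809 in control males, at -0.65 ± 0.34 and an adjusted p of 0.54. Mcm7, a helicase subunit, read 739, 612 and 779 in LDC males, 908, 742 and 1036 in control males, 959, 789 and 1089.5 in LDC females and 868, 844 and 1585 in control females. Its change in males was -0.33 ± 0.23 (adjusted p = 0.671). The LDC and control arrays overlapped for all 3 genes on the probe sets used. On another tested Mcm7 probe set every LDC male was below every control male. Its log2 values were 7.37, 6.97 and 7.14 in LDC males and 7.53, 7.91 and 8.55 in control males.

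**Figure D3:**
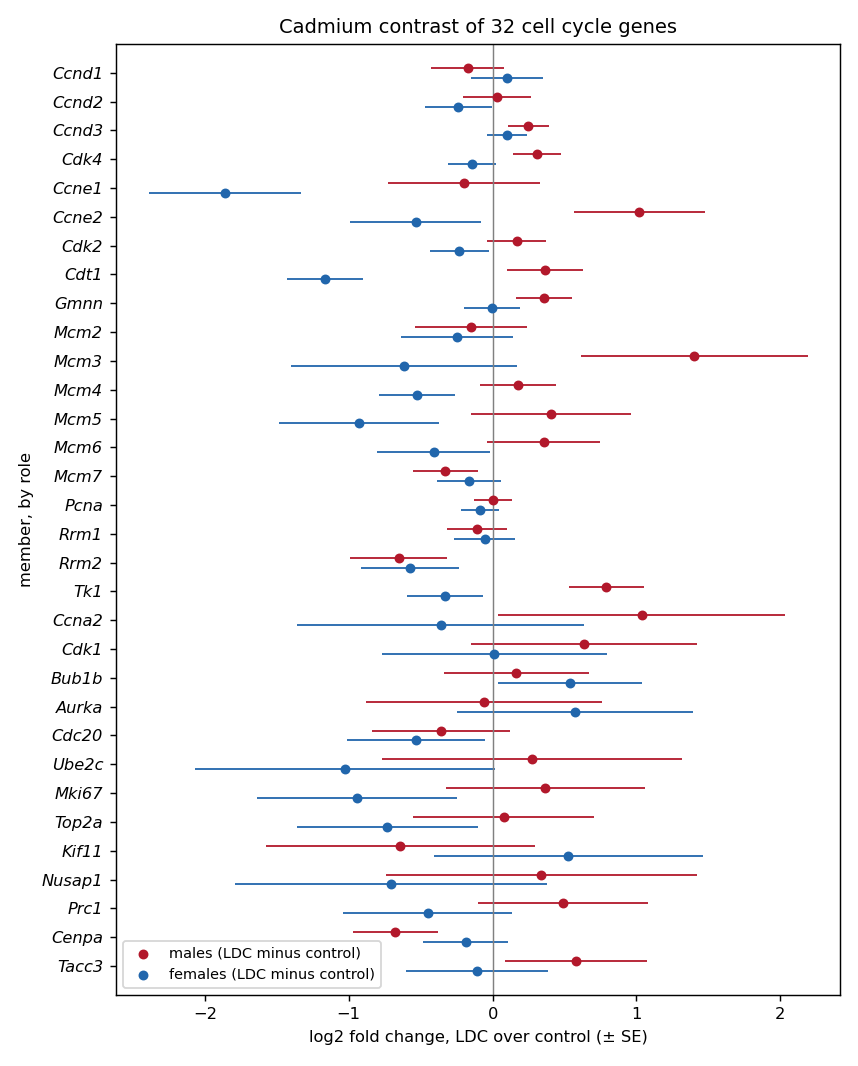
Log2 fold change, LDC over control, of the 32 tested members in males (red) and females (blue), with standard errors of the limma fit (n = 3 arrays a group). Most male points lie right of 0 and most female points left of it, and no member has an adjusted p under 0.05 in either sex.

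In females the same comparison called 0 of the 32 members, against 0.122% of all probe sets. At an unadjusted p under 0.05 there were 2, or 6.2% against 9.01% of all probe sets, and the methods' t-test gave 1 at that level and 0 after adjustment. The median log2 fold change was -0.29 with 6 members above 0 and 26 below, beside 0.006 over all tested probe sets. It was -0.05 without control female 3 and -0.56 without control female 2. In the latter limma fit 8 members had an unadjusted p under 0.05. Calls over all probe sets rose in that fit too, to 106 at an adjusted p under 0.05, against 33 with every array. No member lay above the controls on all LDC arrays (7.16% of all probe sets did), and 3 lay below on all of them (9.4%, against 6.71%).

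Cdt1 read 239, 198 and 171 in LDC females and 534, 324 and 525 in control females, so that every LDC female was below every control female. The log2 fold change was -1.16 ± 0.26 with an unadjusted p of 0.000578 and an adjusted p of 0.142. Without control female 2, the lowest control, it was -1.40 with an adjusted p of 0.0431. A second Cdt1 probe set also separated the groups, at -1.23 ± 0.44 and an adjusted p of 0.414.

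Ccne1, the gene of cyclin E1, read 25.6, 24.5 and 127 in LDC females and 139.6, 139 and 197 in control females. LDC females 1 and 2 lay far under all other arrays of the series while LDC female 3 was close to the lowest control. The log2 fold change was -1.86 ± 0.53 with an adjusted p of 0.255, and without LDC female 3 it was -2.64 with an adjusted p of 0.0231. On a second probe set of Ccne1 it was -1.53 ± 0.66 (adjusted p = 0.509) and the groups overlapped. There LDC female 3 was the lowest array. The log2 values were 5.16, 4.64 and 4.52 in LDC females and 6.13, 4.81 and 7.96 in control females.

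Tk1 read 659.6, 765 and 864 in LDC females and 1055, 868 and 948 in control females. All LDC females were lower, but LDC female 3 and control female 2 were nearly level, and the log2 fold change was -0.33 ± 0.26 (adjusted p = 0.764). Mcm4, another helicase subunit, read 337, 309 and 213 in LDC females and 408, 294 and 552 in control females, and was at -0.53 ± 0.27 (adjusted p = 0.595).

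The mitotic genes had wide errors in this comparison. Mki67 was at -0.94 ± 0.69 and Top2a at -0.73 ± 0.63, with adjusted p-values of 0.74 and 0.785, and Cdk1 was at 0.01 ± 0.78 (adjusted p = 0.998). For Bub1b, the checkpoint kinase BubR1, and Aurka, the Aurora A kinase of the spindle poles, the fitted values were above 0, at 0.54 ± 0.50 and 0.57 ± 0.82 (adjusted p = 0.807 and 0.887). Bub1b read 53.1, 114 and 98.7 in LDC females and 40.1, 41.9 and 116 in control females. Aurka read 99.9, 55.0 and 44.9 in LDC females and 31.2, 15.9 and 151 in control females, so that the control females held both the lowest and the highest array.

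**Figure D4:**
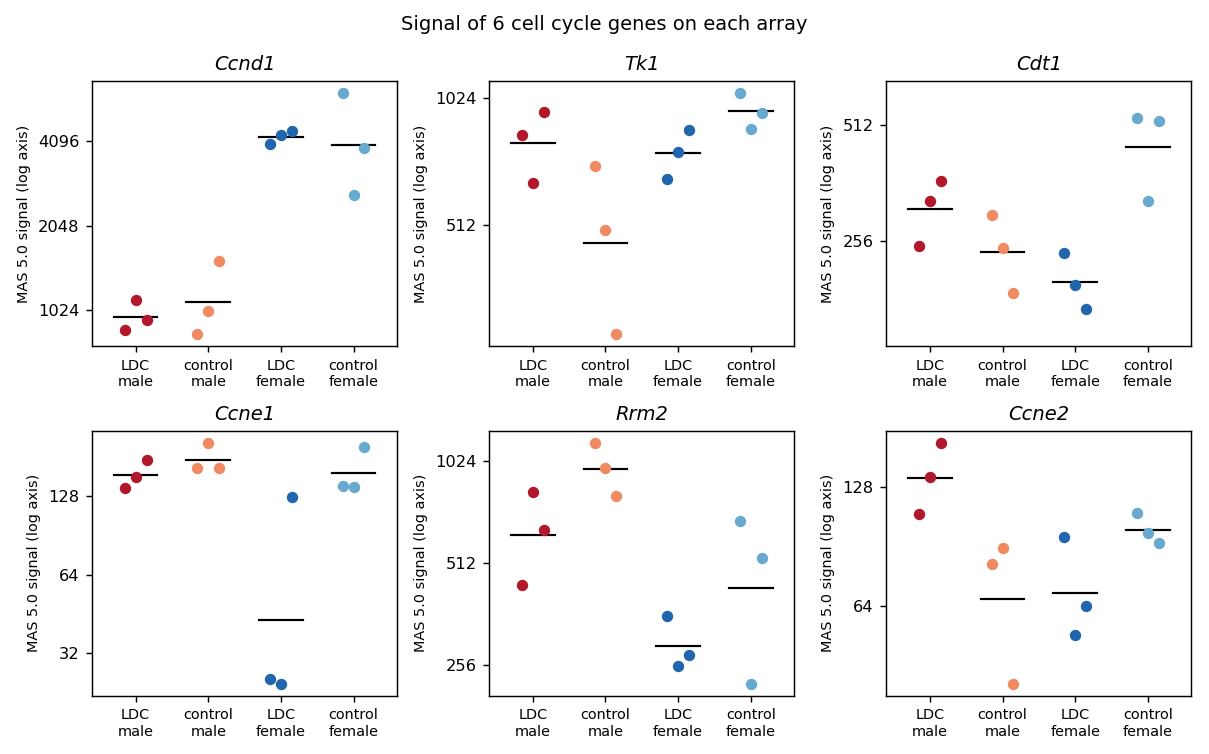
MAS 5.0 signal, on a log axis, of 6 members on each array, with a point per array and a line at the mean of the log2 values of the group (n = 3 arrays each). Ccnd1 separates the sexes, Cdt1 is lower in every LDC female than in every control female, and 2 of the 3 LDC females are at 24.5 and 25.6 for Ccne1.

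The difference between the cadmium contrasts of the sexes, males minus females, was fitted directly. It called 0 members, against 0.178% of all probe sets, and had 4 at an unadjusted p under 0.05 (12.5%, against 10.3%), all with a higher LDC-to-control ratio in males. They were Cdt1 (1.53 ± 0.37, adjusted p = 0.155), Tk1 (1.12 ± 0.37, adjusted p = 0.329), Ccne2 (1.56 ± 0.65, adjusted p = 0.432) and Ccne1 (1.66 ± 0.75, adjusted p = 0.477). In the other direction the smallest p-values were those of Cenpa (-0.49 ± 0.42, adjusted p = 0.738) and Kif11, the kinesin that pushes spindle poles apart (-1.17 ± 1.32, adjusted p = 0.815). Cdt1 read 249, 324 and 367 in LDC males and 299, 246 and 188 in control males, and its groups overlapped there. Cenpa read 264, 222 and 219 in LDC females and 280.3, 205 and 327 in control females, with overlap as in males. Kif11 read 23.3, 57.6 and 78.4 in LDC males, 73.7, 91.0 and 59.6 in control males, 48.4, 63.3 and 98.1 in LDC females and 46.5, 10.0 and 216 in control females, so that control females again held the lowest and the highest array. The median over the members was 0.54 with 24 above 0 and 8 below, beside -0.006 over all tested probe sets.

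The mean of both cadmium contrasts called 0 members as well, against 0.0444% of all probe sets, with 2 at an unadjusted p under 0.05 (6.2%, against 9.28%). These were Ccne1 at -1.03 ± 0.37 (adjusted p = 0.397) and Rrm2 at -0.61 ± 0.24 (adjusted p = 0.438).

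Males were set against females to describe the sex difference within each exposure. Among LDC mice 1 of the 32 members was called, lower in males (3.1%), against 6.29% of all probe sets called and 3.29% called lower. Among control mice 2 were called, both lower in males (6.2%), against 7.73% of all called and 4.14% called lower. The groups did not overlap for 6 members higher and 5 lower in LDC males (18.8% and 15.6%, against 12.5% and 14.4% of all), and for 1 higher and 8 lower in control males (3.1% and 25.0%, against 11.6% and 13.0%).

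Ccnd1, the gene of cyclin D1, was called in both. It read 874, 1115 and 945 in LDC males against 4005, 4293 and 4449 in LDC females, and 844, 1019.8 and 1534 in control males against 6075, 2628 and 3889 in control females. Every male array was below every female array. The log2 fold change was -2.12 ± 0.25 among LDC mice (adjusted p = 0.000118) and -1.85 ± 0.25 among control mice (adjusted p = 0.000413).

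The Ccnd1 difference passed without each of the 12 arrays in turn, at adjusted p-values of at most 0.00113 among LDC mice and 0.00319 among controls, and the methods' t-test gave 0.0339 and 0.226 after adjustment. A second Ccnd1 probe set gave -2.02 ± 0.22 and -1.67 ± 0.22 (adjusted p = 6.82e-05 and 0.000324). The remaining one gave -1.84 ± 0.32 (adjusted p = 0.00259) among LDC mice and -0.96 ± 0.32 (adjusted p = 0.0881) among controls, where its groups overlapped. Between LDC and control arrays of the same sex Ccnd1 differed by -0.17 ± 0.25 in males and 0.10 ± 0.25 in females (adjusted p = 0.875 and 0.942).

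Tk1 was at 0.08 ± 0.26 (adjusted p = 0.918) among LDC mice and was called among control mice, at -1.04 ± 0.26 (adjusted p = 0.0256). The difference between these is the difference of the cadmium contrasts given above, which did not pass. All control males were below all control females. The call was lost without control female 1 or 3 or control male 2 or 3, with adjusted p-values up to 0.0858.

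**Figure D5:**
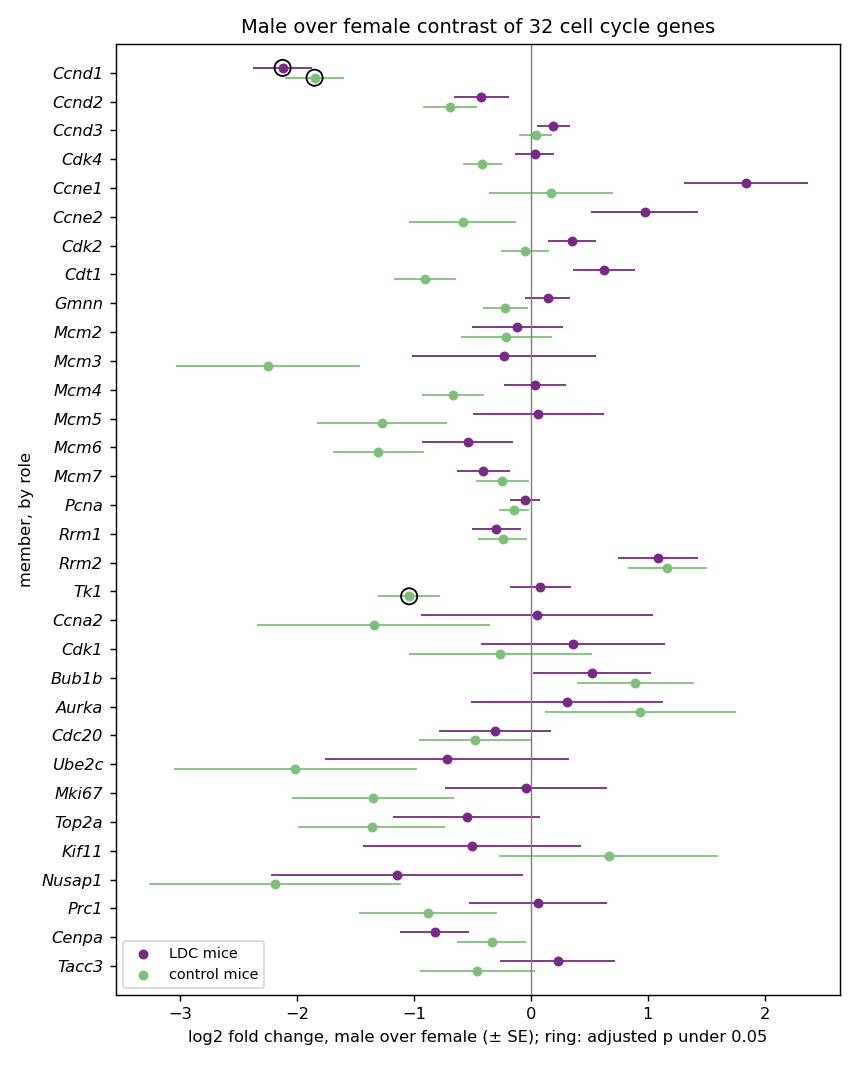
Log2 fold change, male over female, of the 32 tested members among LDC mice (purple) and control mice (green), with standard errors of the limma fit (n = 3 arrays a group) and a ring where the adjusted p is under 0.05. Ccnd1 carries a ring in both and Tk1 among control mice, and the origin licensing genes lie left of 0 among control mice.

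Rrm2 had higher values in males in both exposures but did not pass, although among controls it lay at the threshold. Its log2 fold change was 1.09 ± 0.34 among LDC mice and 1.17 ± 0.34 among controls, with adjusted p-values of 0.0763 and 0.05001. The first passed without control female 1 or 2 and the second without control female 1 or LDC male 1. Among controls it also passed with the filter at the 20th or the 60th percentile, with quantile normalization, median centring, log2(value + 32) or arrayWeights, at adjusted p-values from 0.0374 to just under 0.05, whereas eBayes without a trend, the mean of all its probe sets, the replicate block, no filter and the methods' t-test left it short, with adjusted p-values up to 0.392. LDC males at 442 to 831 lay above LDC females at 356, 253 and 273, and control males at 809 to 1159 lay above control females at 679.5, 225 and 530.1. The values of Rrm2 on 2 further probe sets pointed the same way, and the brightest, which is used here, belongs to a class that Affymetrix marks as able to bind other transcripts. The brightest probe sets of Cdk4, Mcm5 and Cdc20 belong to that class too.

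Among control mice all 8 tested origin licensing genes had fitted values below 0 in males, with a median of -0.79, and 5 had an unadjusted p under 0.05 but 0 passed after adjustment. At that unadjusted level in limma were 34.4% of the 32 members and 21.5% of all probe sets. Cdt1 was at -0.90 ± 0.26 (adjusted p = 0.0516), Mcm6 at -1.31 ± 0.39 (adjusted p = 0.057), Mcm3 at -2.25 ± 0.79 (adjusted p = 0.103) and Mcm5 at -1.27 ± 0.56 (adjusted p = 0.2). Mcm3 read 158, 131 and 10.6 in control males and 236, 189.8 and 524 in control females. Mcm6 read 176, 167 and 101 in control males and 311, 268 and 534 in control females. Both were without overlap on the probe sets used, but on the other tested probe sets of each gene the control groups overlapped. For Mcm3 the brightest of these had log2 values of 6.97, 6.96 and 6.69 in control males. In control females they were 7.50, 6.17 and 8.52. Leaving out control female 2 brought Cdt1, Mcm5, Mcm6 and Ccnd2 past the threshold and raised the calls to 6 members, and Mcm6 also passed without LDC female 1 or 3. Leaving out control male 1 brought Cdt1 and Mcm3 past it, with 4 calls, whereas leaving out control female 3 left Mcm5 at -0.53 (adjusted p = 0.598) and 1 call. Over all probe sets 2186 were called without control female 2, 1714 without control male 1 and 1678 without control female 3. With every array 2088 were called. The median over the 32 members was -0.47 among control mice, beside -0.017 over all probe sets, and -0.29 without control female 3. Among LDC mice it was 0.03. Markers of other cells went in both directions in the same contrast of control mice. Of the neutrophil and granulocyte precursor markers 5 of 7 were called lower in control males (median -1.82), as were 3 of 9 stellate cell and fibroblast markers (median -0.57), and Kupffer cell and macrophage markers were below 0 in 9 of 9 (median -0.95), with 3 at an unadjusted p under 0.05 and 0 called. Of 7 B and plasma cell markers 1 was called lower (median -0.86), and T and NK cell markers had 0 called (median -0.88). In the other direction 1 of 4 red cell and erythroblast markers was called higher (median 0.16), as was 1 of 9 hepatocyte markers (median 0.16). Endothelial and bile duct markers had 0 called (medians -0.17 and -0.30). The part of these cells in the values of the members was not tested.

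Ccne1 was at 1.84 ± 0.53 (adjusted p = 0.055) between LDC males, at 138, 151 and 176, and LDC females. Without LDC female 3 it was 2.62 (adjusted p = 0.00143), and its second probe set was called at 2.88 ± 0.66 (adjusted p = 0.0163). Ccnd2, the gene of cyclin D2, was at -0.42 ± 0.23 among LDC mice and -0.69 ± 0.23 among controls on its brightest probe set (adjusted p = 0.36 and 0.0904), while 3 of its 5 other tested probe sets were called lower in control males, with adjusted p-values of 0.0316, 0.0347 and 0.00647. One of the other Cdk4 probe sets was also called lower in control males, at -0.80 ± 0.18 (adjusted p = 0.0139). Cenpa at -0.82 ± 0.30 among LDC mice (adjusted p = 0.129) and Bub1b at 0.89 ± 0.50 among controls (adjusted p = 0.332) did not pass. Bub1b read 120.3, 95.6 and 109 in control males.

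Further genes of the cycle were taken from 4 lists, with 6 tested CDK inhibitors, 18 E2F, RB and MuvB-MYB factors, 36 further replication genes and 36 further mitotic genes. Of these 96, 0 were called between LDC and control mice in males, in females, in the difference or in the mean. At an unadjusted p under 0.05 limma had 12 in males (12.5%, 5 higher and 7 lower) and 7 in females (7.3%, 1 higher and 6 lower), beside the 10.2% and 9.01% of all probe sets given above.

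Wee1, the kinase that holds Cdk1 inactive before mitosis, had the smallest of these p-values in males. It read 957, 1028.5 and 1056 in LDC males and 361, 555 and 199 in control males, and every LDC male was above every other array of the series. The log2 fold change was 1.57 ± 0.33 with an adjusted p of 0.0774, and passed the threshold without control female 1 or control male 2 (lowest adjusted p 0.0405). Cdc45, which the helicase needs to unwind DNA, was at 1.66 ± 0.55 and Lin37, a MuvB subunit, at -0.70 ± 0.22, with adjusted p-values of 0.306 and 0.281.

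In females Cks1b, a small subunit of cyclin-dependent kinases, read 2072, 1845 and 2906 in LDC mice and 1272, 1240.3 and 1368 in controls, without overlap. Its log2 fold change was 0.79 ± 0.16 (adjusted p = 0.108), and the difference between the sexes was -1.15 ± 0.23 (adjusted p = 0.0702). Cdkn1a, the gene of the CDK inhibitor p21, read 101, 53.1 and 46.1 in LDC females and 188, 176.5 and 238 in control females, also without overlap, at -1.66 ± 0.44 (adjusted p = 0.208). Ckap2l, a spindle protein gene, was at -1.38 ± 0.53 (adjusted p = 0.451).

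Between the sexes 6 of the 96 were called among LDC mice (6.2%) and 4 among control mice (4.2%), against 6.29% and 7.73% of all probe sets, so that neither share was above that of all. Cdkn2c, the gene of p18, an inhibitor of Cdk4 and Cdk6, read 415, 411 and 356 in LDC males against 767.5, 847 and 941 in LDC females, and 479, 390.2 and 280.3 in control males against 1168, 1044 and 1047 in control females. It was lower in every male than in every female, at -1.11 ± 0.19 among LDC mice (adjusted p = 0.00194) and -1.54 ± 0.19 among controls (adjusted p = 0.000152). Mcm10, which acts when origins fire, was higher in every male, at 1.82 ± 0.19 (adjusted p = 4.73e-05) and 2.54 ± 0.19 (adjusted p = 1.91e-06), but among LDC mice the mean over all its probe sets gave 0.85 with an adjusted p of 0.271.

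The other calls were in a single exposure. Among LDC mice Cks1b (-1.62 ± 0.16, adjusted p = 3.59e-05), Lin37 (-0.84 ± 0.22, adjusted p = 0.0377) and Rpa3, a subunit of the single-strand DNA binding protein (-0.64 ± 0.18, adjusted p = 0.0488), were lower in males and Wee1 was higher (1.27 ± 0.33, adjusted p = 0.0349). Among control mice Cks2, a paralogue of Cks1b (-0.66 ± 0.14, adjusted p = 0.0116), and Pola1, the catalytic subunit of the primase-linked DNA polymerase (-1.10 ± 0.32, adjusted p = 0.0475), were lower in males. With single arrays left out, Rpa3 passed in 2 of 12 fits (without control female 1 or 3), Pola1 in 3 (without LDC female 1 or 3 or LDC male 2) Wee1 in 7 (not without LDC female 1 or 2 or any of the LDC males, with adjusted p-values up to 0.145) and Lin37 in 7 (not without any of the LDC females, LDC male 1 or LDC male 2). Of 11 settings other than leaving out arrays, Pola1 passed in 4, Rpa3 in 5, Lin37 and Wee1 in 8, Cks2 in 9 and Cks1b in 10. The Wee1 call was lost with eBayes without a trend, the methods' t-test and the replicate block.

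Markers of some white blood cells were lower in LDC than in control females. Of 7 tested genes of the neutrophil and granulocyte precursor list, 4 were called lower in LDC than in control females, namely S100a8 (-3.17 ± 0.22, adjusted p = 2.06e-05), S100a9 (-2.75 ± 0.36, adjusted p = 0.00357), Prtn3 (-4.27 ± 0.67, adjusted p = 0.0221) and Ngp (-1.75 ± 0.31, adjusted p = 0.0404), and in males S100a8 was called higher (1.43 ± 0.22, adjusted p = 0.0178). Jchain and Ighm of the B and plasma cell list were also lower in LDC females, as 2 of 7 tested. The 4 tested red cell and erythroblast markers had fitted values above 0 in females (median 0.40, 2 at an unadjusted p under 0.05) and 1 above and 3 below in males (median -0.20, 1 at that level), and 0 were called in either. Kupffer cell and macrophage markers had 9 of 9 fitted values above 0 in males, with a median of 0.70, and 9 of 9 below 0 in females, with a median of -0.76. Of these 1 in males and 2 in females had an unadjusted p under 0.05, and 0 were called. The part of these cells in the values of the cell cycle genes was not tested.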

How the data were processed

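Liver RNA of 12 mice, 3 in each of 4 groups of sex and exposure, was measured on Affymetrix Mouse Genome 430 2.0 arrays. The authors computed linear signal intensities per probe set with the MAS 5.0 algorithm in GeneSpring, and these deposited intensities, without detection calls, were used as they stood. Each array already had a trimmed mean of 500.0 after leaving out 2% of values at each end. A gene was represented by its brightest probe set that names it alone in the platform annotation. Log2 intensities of 27022 of 45101 probe sets, those at or above the 40th percentile of mean log2 signal with control probe sets left out, were fitted with limma 3.58.1 in R 4.3.3 as 4 group means, with a trended prior variance and Benjamini-Hochberg adjustment over all of them, and called at an adjusted p under 0.05. Residual degrees of freedom were 8. The fit was tested on simulated data. Values per array were given, in the groups compared, for members called in any contrast, for those with the smallest p-values in each contrast, for those changed 2-fold at an unadjusted p under 0.05, for the 5 brightest, and for Mki67, Top2a, Cdk1, Ccnd1 and Pcna. The members, lists and tests were chosen with earlier results of these data known. Alternatives were other filters, normalizations, pseudocounts and variance models, the methods' t-test, a replicate block, and leaving out each array. The number of arrays limits the precision.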

Additional observations from a re-analysis of the deposited data

How the results depend on the processing

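In the cadmium contrasts 0 members were called under each of the alternatives other than leaving out single arrays, and 0 to 1 in females with an array left out (Cdt1 without control female 2, Ccne1 without LDC female 3). Between control males and control females 2 were called, against 5 when probe sets under the 60th percentile were dropped, 5 after median centring, 4 with log2(value + 32), 1 with eBayes without a trend, 0 with the methods' t-test and 1 to 6 with an array left out. Between LDC males and LDC females 1 was called, against 2 with the mean of all probe sets of a gene, 3 with arrayWeights and 1 to 2 with an array left out. The labels number the replicates 1 to 3 in each group and do not say whether the numbers pair mice. Same-numbered arrays did not deviate together (correlations from -0.028 to 0.059, beside -0.078 to 0.082 for differently numbered arrays). A pairing with a small effect, or with an effect on few genes, would not show in these correlations. A replicate block gave 0 calls in each cadmium contrast, 2 between control sexes and 2 between LDC sexes. With an array left out the members' median in females ranged from -0.564 to -0.05. Over all probe sets the cadmium contrasts called 75 in males (17 to 103 with an array left out) and 33 in females (15 to 106), and the mean called 12 (0 to 39). Without an array the control sexes differed in 1351 to 2186 probe sets, around 2088, and the LDC sexes in 1054 to 1861, around 1701. Under the other alternatives these counts lay between 0 (methods' t-test) and 101 for LDC males, 0 (methods' t-test) and 38 for LDC females, 10 (eBayes without a trend) and 61 for the difference, which was 48 (22 to 78 with an array left out), 2 (eBayes without a trend) and 23 (replicate block) for the mean, 7 (methods' t-test) and 2287 for the control sexes and 325 (methods' t-test) and 2309 for the LDC sexes. The replicate block gave 48 in LDC males and 23 in LDC females.

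Of 1367 alternative values of 60 named fold changes, 1263 kept their direction and their side of the threshold, 61 lost a call, 26 gained one and 17 changed sign. The sign changed for values near 0 in males, namely Pcna with median centring (-0.023), and with arrayWeights Pcna (0.0) and Top2a (-0.012), and in females Cdk1 with log2(value + 32) (-0.085). With an array left out the ranges that crossed 0 were -0.012 to 0.028 for Pcna, -0.362 to 0.069 for Ccnd1, -0.194 to 0.676 for Mki67 and -0.326 to 0.626 for Top2a in males, and -0.133 to 1.492 for Aurka, -0.195 to 0.409 for Ccnd1, -0.991 to 0.642 for Cdk1 and -0.231 to 0.087 for Pcna in females. The cause of these changes was not tested.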
